A study of Mus musculus with 30 samples.

Results

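Autophagy and mitophagy genes were described across the maturation of murine erythroleukemia (MEL) cells with and without the mitochondrial transporter Abcb10. The 10 genes were chosen by symbol, out of 54532 genes in the count table: the mitophagy receptors Bnip3 and Bnip3l, the initiating kinase Ulk1, the phosphoinositide reader Wipi1, the ATG8 family members Map1lc3a, Map1lc3b, Gabarapl1 and Gabarapl2, the cargo receptor Sqstm1 and the transcription factor Foxo3. All 10 were found in the table, and all 10 passed the filter on low counts in every comparison. MEL cells are a mouse erythroid line arrested as precursors, which start to make hemoglobin when DMSO is added. WT MEL cells (DS19 clone) and Abcb10-null MEL cells were sampled before treatment (day 0) and on days 2 and 5 of culture with DMSO at 1.5%. Each combination of genotype and day was covered by 5 libraries, 30 in total. The null line is 1 clone obtained by CRISPR/Cas9 editing, so any difference between genotypes is also one between that clone and the WT cells. Both genotypes received DMSO.

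Autophagy encloses cytoplasm in a double membrane and delivers it to the lysosome. The ULK1 kinase starts the process, lipid kinases mark the forming membrane with a phosphoinositide that WIPI proteins bind, and proteins of the LC3 and GABARAP families are joined to that membrane, where receptors such as SQSTM1, BNIP3 and BNIP3L tie cargo to them. Maturing erythroid cells remove their mitochondria in this way, and BNIP3L, also called NIX, is the receptor known for it in reticulocytes. ABCB10, an inner mitochondrial membrane transporter needed for hemoglobin synthesis, was the gene edited in these cells.

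The values are counts of reads per gene, and library totals ranged from 9906783 to 20157768 counts. Levels are given as CPM, the count scaled to a common library total with edgeR's TMM factors over all libraries. Abcb10 transcript was lower in each Abcb10-null library than in each WT library of the same day, with means of 119 ± 5.65, 567 ± 87.5 and 1223 ± 45.6 CPM in the WT and 74.3 ± 4.82, 202 ± 62.1 and 212 ± 30.2 CPM in the Abcb10-null libraries (SD, n = 5). The 12 erythroid markers were all detected, and their summed level at day 5 was 13725 to 27322 CPM in the WT and 6764 to 8776 CPM in the Abcb10-null libraries, against 4464 to 5892 and 2874 to 4294 CPM at day 2 and 2726 to 2972 and 2791 to 3130.0 CPM at day 0. Summed markers of myeloid, lymphoid and fibroblast cells stayed at or below 8.31, 4.57 and 6.85 CPM in every library, while 4 megakaryocyte markers summed to 154 to 603 CPM. The part of the unequal erythroid marker levels in the differences between genotypes was not tested, and in such bulk samples fewer maturing cells and less RNA per cell cannot be told apart. 2 libraries stood apart from their groups in Trib3, among other transcripts. Abcb10-null replicate 2 at day 2 held 23.2 CPM of Trib3, the transcript of a stress-induced pseudokinase. The other 4 libraries of its group held 242 to 964 CPM. The 242 CPM were those of replicate 5, whose summed erythroid markers (3052 CPM) lay near those of replicate 2 (2874 CPM). Replicates 1, 3 and 4 held 728 to 964 CPM of Trib3 and 3772 to 4294 CPM of these markers. That group was therefore uneven beyond replicate 2, and no fit left out replicates 2 and 5 together. WT replicate 5 at day 5 held 429.7 CPM of Trib3 beside 18 to 31.5 CPM in the other 4 WT libraries, and its summed erythroid markers were 13725 CPM beside 23374 to 27322 CPM. In Abcb10-null replicate 2 at day 2 and WT replicate 5 at day 5, the level of Abcb10 lay with the labelled genotype (166 and 1264 CPM). WT replicate 2 at day 5 had the same mean correlation of log2 levels with its group as replicate 5 (0.94, beside 0.97 for the other 3), with 18 CPM of Trib3 and erythroid markers of 23374 CPM, and it held the most Foxo3 and Ulk1 of its group. Every member was refitted without each library in turn, values are given where a call changed, and the part of whatever sets these libraries apart was not tested.

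Per kilobase of exon, Bnip3 was the most abundant of the 10 transcripts in WT cells at day 0 and Ulk1 the least. The means over 5 libraries ran from 98.8 ± 15.3 CPM per kb for Bnip3 through 63.8 ± 2.29 for Sqstm1, 52.4 ± 2.12 for Gabarapl1 and 44.0 ± 2.49 for Bnip3l to 8.01 ± 0.656 for Gabarapl2, 6.08 ± 0.636 for Foxo3, 4.31 ± 0.330 for Map1lc3b, 3.77 ± 0.305 for Map1lc3a, 0.747 ± 0.107 for Wipi1 and 0.490 ± 0.145 for Ulk1 (SD). By day 5 in WT cells Foxo3 was the fourth in order, at 60.5 ± 31.8 CPM per kb, just above Gabarapl1 at 51.1 ± 10.1, and the 2 lay within each other's spread. In Abcb10-null cells at day 5 the highest level per kb was that of Sqstm1 (189 ± 32.6), beside 97.7 ± 35.2 for Bnip3, 58.1 ± 11.4 for Bnip3l and 28.8 ± 5.09 for Foxo3. The plot of levels by library shows each gene in all 30 libraries.

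**Figure D1:**
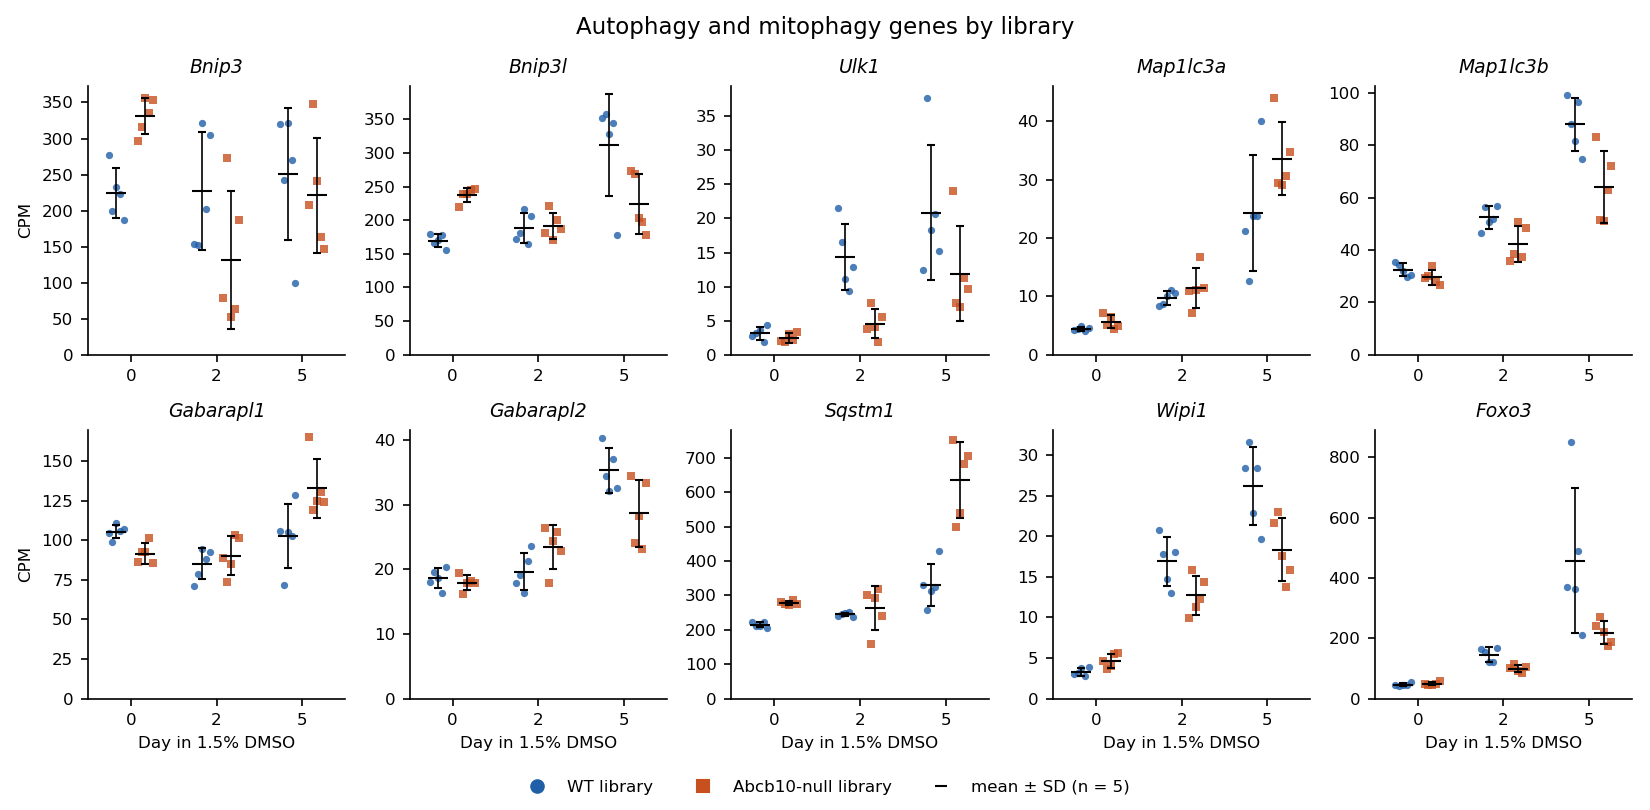
Levels of the 10 autophagy and mitophagy genes in CPM (linear axis from 0) at days 0, 2 and 5 in 1.5% DMSO, 1 point per library, with the mean and SD of 5 libraries in black. Foxo3, Wipi1, Ulk1, Map1lc3a and Map1lc3b rose with time in both genotypes, Sqstm1 separated the genotypes at day 5, and Bnip3 was spread widely among libraries from day 2.

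To ask how these transcripts differed between the Abcb10-null clone and WT cells, their libraries were compared at each day with edgeR's quasi-likelihood test, fitted on the whole table. At day 0, 4 of the 10 genes were higher in Abcb10-null cells and 1 was lower, where 19.7% of the 12912 genes tested were called higher and 16.2% lower. At day 2 none was called higher and 2 were called lower, beside 14.9% and 16.9% of 13053 genes. At an unadjusted p under 0.05, none of the 10 had a positive and 4 a negative change, and with DESeq2, none of the 10 had a positive and 2 a negative change. Shares of all genes are not given for these settings, and the 14.9% and 16.9% do not apply to them. At day 5, 1 was higher and 3 were lower, beside 19.8% and 17.8% of 12676 genes. On days 0, 2 and 5 the 10 genes had median log2 differences of 0.21, -0.19 and -0.39, beside -0.0019, -0.0022 and -0.016 for all genes tested. Such counts out of 10 genes carry no statement about the group, and the genes are described singly. Without Abcb10-null replicate 2 at day 2, 4 genes were called lower and none higher, beside 21.1% lower and 19.5% higher of 13199 genes. Without WT replicate 5 at day 5, 7 were called, 3 higher and 4 lower, beside 22.2% and 20.7% of 13037 genes. Without WT replicate 1, WT replicate 4 or Abcb10-null replicate 3 in turn, 2 were called, and shares of all genes are not given for these fits. In a joint fit of all 30 libraries, 1 gene was called at day 0, where fewer of all genes were called too.

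**Figure D2:**
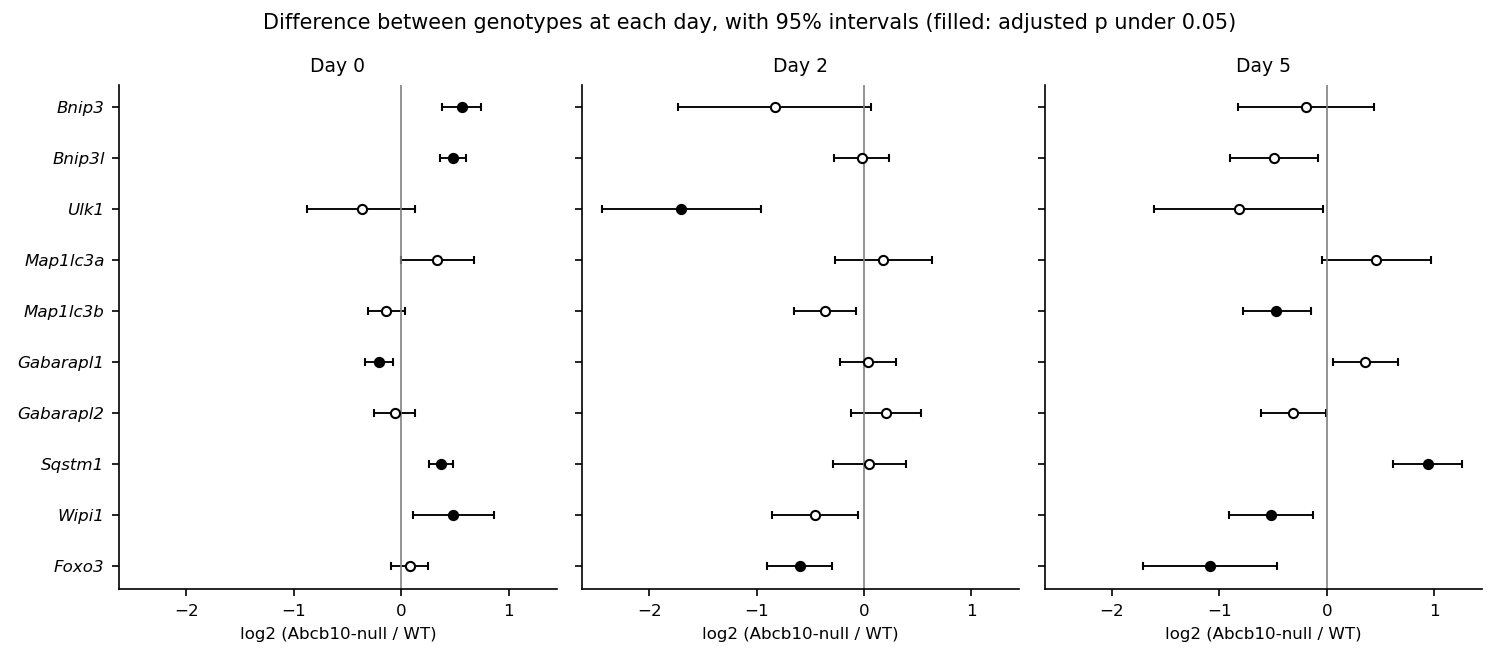
Difference in log2 level, Abcb10-null minus WT (x axis), for each gene at days 0, 2 and 5, with 95% intervals from edgeR and 5 libraries per genotype. Filled points have an adjusted p under 0.05: 5 genes at day 0, 2 at day 2 and 4 at day 5, with Sqstm1 to the right and Foxo3 to the left at day 5.

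Bnip3 (ENSMUSG00000078566, chromosome 7, 138890836 to 138909519 in GRCm38) encodes an outer mitochondrial membrane receptor that recruits LC3 and GABARAP proteins. At day 0 its level was 277, 200, 233, 223 and 187 CPM in WT replicates 1 to 5 and 297, 315, 356, 336 and 353 CPM in Abcb10-null replicates 1 to 5. The ranges were apart, and the transcript was 1.47-fold higher (log2 0.56, standard error 0.0858, edgeR adjusted p = 5.65e-05). The call was lost in a joint fit of all 30 libraries (adjusted p = 0.302), and held in the other 6 settings and in the 10 fits without 1 library. At day 2 the levels were 154, 152, 322, 202 and 305 CPM in the WT and 78.2, 273, 52.5, 64.0 and 187 CPM in the Abcb10-null replicates 1 to 5. Both groups were spread widely, 5.20-fold from lowest to highest in Abcb10-null cells, and the 2 groups overlapped. The log2 difference of -0.83 (95% interval -1.73 to 0.066) was not called (edgeR adjusted p = 0.14). It was -1.30 (adjusted p = 0.0121) without Abcb10-null replicate 2. Of 7 other settings, 2 called it, among them that with genes kept from 1 count upward (-0.81, adjusted p = 7.81e-06), and the adjusted p reached 0.221 with DESeq2. At day 5, WT libraries held 320.1, 242, 322, 269.7 and 99.2 CPM and Abcb10-null libraries 208, 347, 242, 163 and 146 CPM, with WT replicate 5 the lowest of the 10 and the other libraries overlapping. The difference of -0.19 (95% interval -0.83 to 0.44) was smaller than the spread.

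Over time, Bnip3 fell in Abcb10-null cells and showed no called change in WT cells. In Abcb10-null cells it was 2.46-fold lower at day 2 than at day 0 (log2 -1.30, standard error 0.380, edgeR adjusted p = 0.0141), with the ranges apart, and 1.49-fold lower at day 5 than at day 0 (edgeR adjusted p = 0.00931; 0.133 in a joint fit of all 30 libraries). Between days 2 and 5 the change in Abcb10-null cells was 0.75 (edgeR adjusted p = 0.178; 1.21 and 0.0137 without replicate 2 at day 2). In WT cells the change from day 0 was 0.024 at day 2 and 0.16 at day 5 on the log2 scale. Without WT replicate 5 at day 5 the latter was 0.36 (edgeR adjusted p = 0.0154). The change from day 0 to day 2 differed between genotypes by -1.35 (standard error 0.461, edgeR adjusted p = 0.0384). That call was lost in 9 of the 20 fits without 1 library. Those were the fits without WT replicates 2, 3 or 5 or Abcb10-null replicates 3 or 5 at day 0, or WT replicates 3 or 5 or Abcb10-null replicates 1 or 4 at day 2 (adjusted p = 0.051 to 0.0663), and the value was -1.82 without Abcb10-null replicate 2.

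The uneven levels of Bnip3 among replicates were shared by other transcripts. Over the 30 libraries, the 5 genes with the closest log2 levels, among 8553 genes with a mean of at least 10 CPM, were Gm15283 (0.95), Eno2 (0.92), Ankrd37 (0.90), C3 (0.90) and P4ha1 (0.87), with Pearson r in parentheses. Gm15283 is an antisense RNA, Eno2 encodes an enolase, Ankrd37 an ankyrin repeat protein, C3 a complement protein and P4ha1 a subunit of prolyl 4-hydroxylase. With each group's mean removed, the same 5 values of r were 0.96, 0.90, 0.95, 0.89 and 0.89. These values describe libraries of 6 groups that share genotype and day, and Bnip3 was taken up for this comparison after its spread was seen. In Abcb10-null cells at day 2, Ankrd37 read 37.0, 116, 9.38, 22.7 and 82.2 CPM in replicates 1 to 5, and replicates 2 and 5 were the highest for both Ankrd37 and Bnip3. In WT cells at day 5, replicate 5 was the lowest for both, at 31.5 CPM of Ankrd37 beside 87.4 to 149.6 CPM. The plot of paired levels sets Bnip3 beside Ankrd37 in each library.

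**Figure D3:**
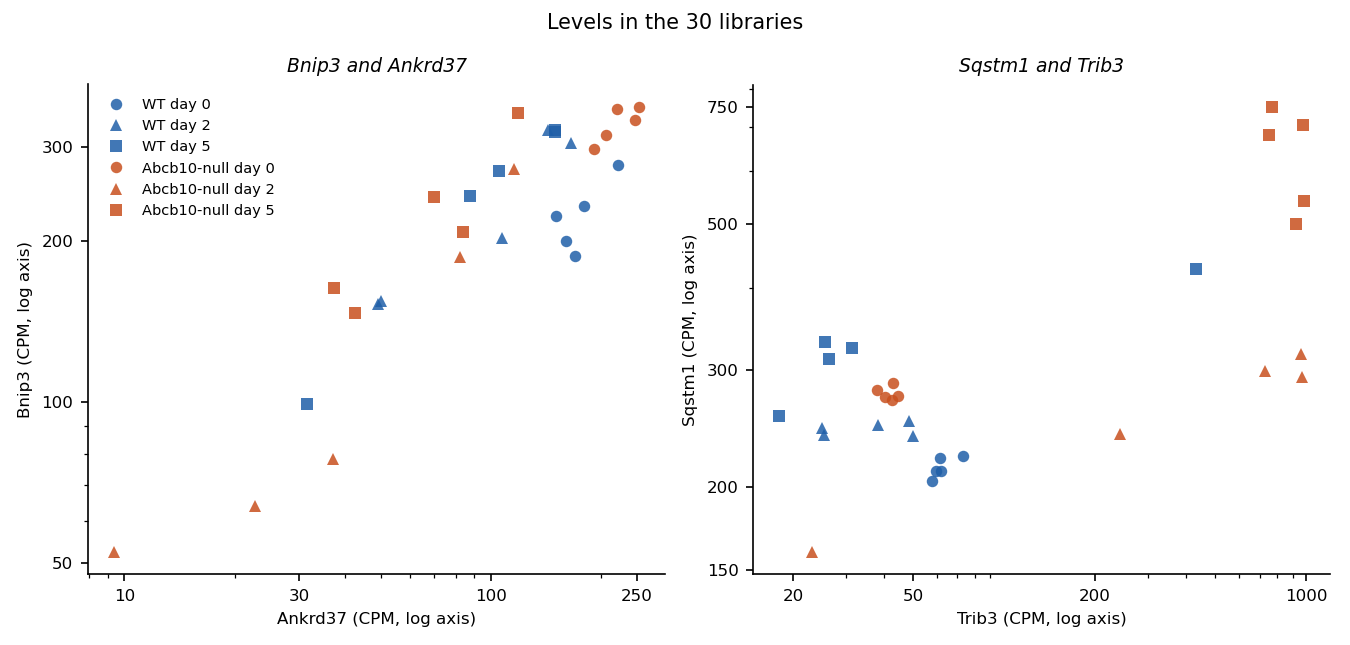
Levels in CPM in each of the 30 libraries, both axes logarithmic: Bnip3 (y) against Ankrd37 (x) on the left, and Sqstm1 (y) against Trib3 (x) on the right, coloured by genotype and shaped by day. The lowest Bnip3 and Ankrd37 levels were those of Abcb10-null replicates at day 2, and WT replicate 5 at day 5 (square at 429.7 CPM of Trib3) lay between the WT and the Abcb10-null libraries of that day.

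Promoters of the members were read for 6 short motifs, chosen with results of these data known. The core of the hypoxia response element was taken as ACGTG, and the E-box of the lysosomal gene network as CACGTG. The forkhead motif was searched as GTAAACA and the erythroid factor motif of the GATA family as AGATAA. The amino acid response element was searched as TGATGNAA, and for the antioxidant response element the letters were TGACNNNGC. Both strands of the 250 bases before the start were searched in RefSeq sequences of GRCm38.p6, where 8 of the 10 genes had an entry and Bnip3l and Map1lc3a had none. ACGTG was found in the promoters of Bnip3 and Gabarapl2, and in 16.6% of 32851 promoters of the same length. The other 6 genes held none of the 6 motifs in this window. The match in Bnip3 begins 108 bases before the start and is a CACGTG, which holds ACGTG on both strands and occurs in 6.02% of promoters. That in Gabarapl2 begins 75 bases before the start, on the opposite strand. A match describes the letters only. The 2 sequences are printed, to show where these matches lie, 5′ to 3′ on the gene's strand, with the match in capitals, from chr7:138909507-138909756 (minus strand) for Bnip3 and chr8:111940453-111940702 (plus strand) for Gabarapl2.
Bnip3: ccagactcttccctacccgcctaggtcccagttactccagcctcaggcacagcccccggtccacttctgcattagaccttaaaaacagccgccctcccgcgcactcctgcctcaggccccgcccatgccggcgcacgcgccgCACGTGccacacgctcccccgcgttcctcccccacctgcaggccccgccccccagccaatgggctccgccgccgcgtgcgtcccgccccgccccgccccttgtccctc
Gabarapl2: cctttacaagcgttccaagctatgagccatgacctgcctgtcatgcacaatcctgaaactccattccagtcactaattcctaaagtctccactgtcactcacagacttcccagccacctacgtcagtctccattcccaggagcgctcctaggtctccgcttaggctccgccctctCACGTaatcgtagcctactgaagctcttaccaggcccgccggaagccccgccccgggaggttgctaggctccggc

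Bnip3l (ENSMUSG00000022051, chromosome 14, 66985239 to 67008877) encodes NIX, the receptor for mitochondrial clearance in reticulocytes. Before DMSO its level was 179, 166, 169.9, 177 and 156 CPM in the WT and 220.0, 239, 239.5, 245 and 246 CPM in the Abcb10-null replicates 1 to 5. The groups did not overlap, and Bnip3l was 1.40-fold higher in Abcb10-null cells (log2 0.48, standard error 0.0580, edgeR adjusted p = 3.57e-06), the only day 0 call that also held in a joint fit of all 30 libraries (adjusted p = 0.0193). At day 2 it ranged from 164 to 217 CPM in the WT and from 171 to 221 CPM in the Abcb10-null libraries, with a log2 difference of -0.021 (95% interval -0.28 to 0.23) that changed sign in 7 alternatives. At day 5 the order was turned, with 351, 358, 329, 344 and 178 CPM in the WT and 274, 269, 203, 197 and 178 CPM in the Abcb10-null libraries. 4 of the 5 WT libraries lay above every Abcb10-null library, and WT replicate 5 lay level with the lowest of them. The log2 difference was -0.49 (95% interval -0.90 to -0.078), short of the threshold (edgeR adjusted p = 0.0582). It was -0.65 (adjusted p = 0.00165) without WT replicate 5 and -0.57 (adjusted p = 0.0484) without Abcb10-null replicate 1. Of 7 other settings, 5 called it, among them DESeq2 (0.0339) and a joint fit of all 30 libraries (0.00668), and the highest adjusted p over the 7 was 0.0547.

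In WT cells Bnip3l rose 1.84-fold from day 0 to day 5 (log2 0.88, standard error 0.162, edgeR adjusted p = 0.000288). The log2 change was 0.73 from day 2 to day 5 (edgeR adjusted p = 0.00753), while from day 0 to day 2 it was 0.15 (adjusted p = 0.17; 0.0499 without WT replicate 1 at day 2). Abcb10-null cells showed no such rise: from day 0 the change was -0.28 at day 2 (edgeR adjusted p = 0.0284) and -0.078 at day 5 (95% interval -0.31 to 0.16). The day 2 call was lost in 6 of 10 fits without 1 library, those without Abcb10-null replicates 2, 3, 4 or 5 at day 0 or replicates 1 or 3 at day 2 (adjusted p = 0.0539 to 0.0783). The change from day 0 to day 5 differed between genotypes by -0.95 (1.93-fold, standard error 0.208, edgeR adjusted p = 0.00123). Each alternative tried kept it past the threshold. For the first 2 days the difference was -0.45 (adjusted p = 0.0174), and the call was lost in a joint fit of all 30 libraries (0.0954) and with genes kept from 1 count upward (0.0653).

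Ulk1 (ENSMUSG00000029512, chromosome 5, 110784488 to 110810097) encodes the kinase that starts autophagosome formation, and its transcript was scarce before DMSO, at 1.89 to 4.42 CPM in the WT and 1.81 to 3.38 CPM in the Abcb10-null libraries. At day 2 the WT libraries held 21.6, 16.5, 11.1, 9.40 and 12.8 CPM and the Abcb10-null libraries 3.76, 7.58, 4.09, 1.83 and 5.49 CPM. Each Abcb10-null library lay below each WT library, and the transcript was 3.24-fold lower in Abcb10-null cells (log2 -1.70, standard error 0.344, edgeR adjusted p = 0.00508), the larger of the 2 calls at that day. The call held in each alternative setting and each fit without 1 library (-1.96 to -1.49 over the latter). At day 5 the levels were 12.5, 37.7, 18.3, 20.6 and 15.2 CPM in the WT and 24.1, 7.53, 7.07, 11.3 and 9.64 CPM in the Abcb10-null libraries. 4 of the 5 Abcb10-null libraries lay below every WT library, and replicate 1, at 24.1 CPM, lay above all WT libraries except replicate 2. The difference of -0.82 (95% interval -1.61 to -0.036) was not called (edgeR adjusted p = 0.0919), and without Abcb10-null replicate 1 it was -1.25 (adjusted p = 0.00896).

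By day 5 Ulk1 had risen 6.53-fold in WT (log2 2.71, standard error 0.311) and 4.83-fold in Abcb10-null cells (log2 2.27, standard error 0.322), with ranges apart in both (edgeR adjusted p = 4.18e-06 and 1.18e-05). At day 2 WT cells stood at 4.46-fold (edgeR adjusted p = 1.31e-05), where Abcb10-null cells stood at 1.89-fold (adjusted p = 0.0414; 0.0936 without Abcb10-null replicate 2 at day 2). This Abcb10-null call was also lost without Abcb10-null replicates 1, 2, 3 or 4 at day 0 or replicates 3 or 5 at day 2 (adjusted p from 0.0516 upward). The rise to day 2 differed between genotypes by -1.26 (standard error 0.432, edgeR adjusted p = 0.0386), and the call was lost in 11 of 20 fits without 1 library. Those were the fits without WT replicates 1 to 4 or Abcb10-null replicates 3 or 5 at day 0, or WT replicates 1 or 2 or Abcb10-null replicates 1, 3 or 4 at day 2 (adjusted p = 0.0505 to 0.0725). Between days 2 and 5 Ulk1 rose 2.6-fold in Abcb10-null cells (adjusted p = 0.0163; 0.94 on the log2 scale and adjusted p = 0.0649 without replicate 1 at day 5), and the interaction for these days was 0.83 (95% interval -0.23 to 1.88).

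Wipi1 (ENSMUSG00000041895, chromosome 11, 109573331 to 109611967) encodes a WD-repeat protein that binds phosphatidylinositol 3-phosphate on the forming autophagosome. It rose in both genotypes, from 3.00, 3.14, 3.72, 2.76 and 3.86 CPM to 28.4, 31.6, 22.8, 28.3 and 19.6 CPM in WT replicates 1 to 5 and from 4.66, 3.61, 3.95, 5.44 and 5.58 CPM to 21.7, 23, 17.6, 13.7 and 15.8 CPM in Abcb10-null replicates 1 to 5. At day 0, 4 of 5 Abcb10-null libraries lay above every WT library, whereas at day 5, 3 of 5 lay below every WT library. The rise from day 0 to day 5 was 7.91-fold in WT and 3.99-fold in Abcb10-null cells (edgeR adjusted p = 8.24e-09 and 5.78e-08), and the genotypes differed in it by -0.98 on the log2 scale (standard error 0.248, adjusted p = 0.0041). Over the first 2 days they differed by -0.89 (adjusted p = 0.0135). Both interaction calls held in every alternative tried. The differences on single days were smaller: Wipi1 was 1.40-fold higher at day 0 (0.48, edgeR adjusted p = 0.0416) and 1.43-fold lower at day 5 (-0.52, edgeR adjusted p = 0.0354). The day 0 call dropped out on leaving out WT replicates 1, 2, 3 or 4 or Abcb10-null replicates 1, 4 or 5 (adjusted p = 0.0535 to 0.107) and in 4 of 7 other settings (adjusted p up to 0.0872, in a joint fit of all 30 libraries). The day 5 call dropped out on leaving out WT replicates 1, 2 or 4 or Abcb10-null replicates 3, 4 or 5 (0.0634 to 0.0875). At day 2 the difference of -0.46 (95% interval -0.86 to -0.056) was not called, and it was -0.56 (adjusted p = 0.031) without Abcb10-null replicate 2.

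The ATG8 family followed separate courses. Map1lc3b (ENSMUSG00000031812, chromosome 8, 121590361 to 121598760), which encodes the LC3B protein conjugated to autophagic membranes, rose stepwise: WT cells held 29.9 to 35.5 CPM at day 0, 46.5 to 56.8 CPM at day 2 and 74.9 to 99.1 CPM at day 5, with no overlap between days. Abcb10-null cells held 26.5 to 34.0, 36.0 to 50.8 and 51.1 to 83.2 CPM on the same days. The rise by day 5 was 2.72-fold in WT and 2.18-fold in Abcb10-null cells (edgeR adjusted p = 5.48e-08 and 1.29e-06), and the interaction of -0.31 (95% interval -0.67 to 0.044) was not called, except without Abcb10-null replicate 1 at day 5 (-0.43, adjusted p = 0.0444). At day 5 the single libraries read 99.1, 88.2, 81.8, 96.5 and 74.9 CPM in the WT and 83.2, 51.7, 51.1, 63.1 and 72.2 CPM in the Abcb10-null libraries. Map1lc3b was 1.38-fold lower in Abcb10-null cells at day 5 (log2 -0.47, standard error 0.147, edgeR adjusted p = 0.0239). Of the Abcb10-null libraries, 4 lay below the whole WT range. The call dropped out on leaving out replicate 1 or 4 of WT cells, or 2 or 3 of Abcb10-null cells (adjusted p = 0.0515 to 0.0582). At day 2 the difference of -0.36 stood at the threshold (edgeR adjusted p = 0.0503; 0.0418 to 0.178 over 7 other settings, 3 of which called it), and it was called without Abcb10-null replicate 3 or 5 (0.0362 and 0.0372).

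Map1lc3a (ENSMUSG00000027602, chromosome 2, 155276297 to 155278073), the gene of the LC3A protein, rose in both genotypes. WT libraries held 3.99 to 4.94 CPM at day 0 and Abcb10-null libraries 4.48 to 7.20 CPM, and no day 5 library of either genotype lay as low. The rises to day 5 were 5.44-fold and 5.96-fold (edgeR adjusted p = 1.24e-06 and 1.25e-09), and their difference was 0.14 on the log2 scale with a 95% interval of -0.48 to 0.76, turning to -0.019 without WT replicate 2 at day 5. At day 5 WT libraries held 21.2, 12.7, 23.8, 23.8 and 40.1 CPM and Abcb10-null libraries 44.1, 29.4, 29.1, 30.6 and 34.7 CPM. WT replicate 5 lay inside the Abcb10-null range and the other 4 WT libraries lay below it. The log2 difference was 0.46 (edgeR adjusted p = 0.139), and 0.70 (0.0108) without that library.

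Gabarapl1 (ENSMUSG00000030161, chromosome 6, 129533160 to 129542346), a GABARAP-like member of the family, was the only one of the 4 with no called rise in WT cells. It averaged 105 ± 4.28, 85.1 ± 9.75 and 103 ± 20.3 CPM in the WT and 91.7 ± 6.49, 90.4 ± 12.3 and 133 ± 18.5 CPM in the Abcb10-null libraries at days 0, 2 and 5 (SD, n = 5). WT cells fell 1.24-fold by day 2 (edgeR adjusted p = 0.00901), and their log2 change from day 0 to day 5 was -0.039 (95% interval -0.30 to 0.23; 0.069 without WT replicate 2 at day 5). Between days 2 and 5 the WT change was 0.27 (adjusted p = 0.19; 0.0266 without that library). Abcb10-null cells rose 1.46-fold from day 0 to day 5 (edgeR adjusted p = 8.4e-05), with the ranges apart. The genotypes differed in this change by 0.59 (standard error 0.158, adjusted p = 0.0064), a call kept in every alternative tried. On single days Gabarapl1 was 1.16-fold lower in Abcb10-null cells at day 0 (edgeR adjusted p = 0.0148; 0.305 in a joint fit of all 30 libraries), and at day 5 the difference was 0.36 (adjusted p = 0.0568; 0.44 and 0.0174 without WT replicate 5). 28.3% of its exon bases are also exon of 1700101I11Rik on the opposite strand, and the strand setting of the counting is not given in the sources used here, so some of its reads may belong to that gene.

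Gabarapl2 (ENSMUSG00000031950, chromosome 8, 111940703 to 111953612), also called GATE-16, averaged 18.6 ± 1.53, 19.6 ± 2.86 and 35.3 ± 3.43 CPM in the WT and 17.9 ± 1.16, 23.5 ± 3.40 and 28.6 ± 5.17 CPM in the Abcb10-null libraries. It rose 1.90-fold in WT and 1.61-fold in Abcb10-null cells from day 0 to day 5 (edgeR adjusted p = 5.49e-06 and 0.000145), and no difference between genotypes was called on any day (log2 -0.063, 0.20 and -0.31). WT cells rose after day 2 (0.85, adjusted p = 0.000621), and in Abcb10-null cells a rise was called by day 2 (0.41, adjusted p = 0.0148). The latter call was lost with genes kept from 1 count upward (0.0693). Up to day 2 the difference between genotypes of 0.31 (95% interval -0.042 to 0.67) was not called (edgeR adjusted p = 0.183). The difference between genotypes from day 2 to day 5 was -0.56 (95% interval -0.99 to -0.13, edgeR adjusted p = 0.112), and -0.63 (adjusted p = 0.0438) without both libraries that stood apart.

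Sqstm1 (ENSMUSG00000015837, chromosome 11, 50199366 to 50210827) encodes p62, a receptor that ties ubiquitinated cargo to LC3 and is itself degraded by autophagy, so that a transcript level says nothing of its turnover. At day 5 the WT libraries held 331, 256, 312, 325 and 428 CPM and the Abcb10-null libraries 751, 499, 540.3, 681 and 705 CPM in replicates 1 to 5. The groups did not overlap, and the highest WT library was replicate 5. Sqstm1 was 1.91-fold higher in Abcb10-null cells (log2 0.94, standard error 0.148, edgeR adjusted p = 0.0004), the only member called higher at that day, and 1.03 on the log2 scale without WT replicate 5. At day 0 the groups were also apart, with 204 to 222 CPM in the WT and 271 to 287 CPM in the Abcb10-null libraries, a 1.29-fold difference (edgeR adjusted p = 2.87e-05; 0.0743 in a joint fit of all 30 libraries). At day 2 WT libraries were tightly grouped (238 to 252 CPM) and Abcb10-null libraries were not, at 299.6, 159.6, 293, 317 and 241 CPM. Of these, 3 lay above all WT libraries and replicate 2 lay below them. The log2 difference was 0.047 (95% interval -0.29 to 0.39), and 0.18 (edgeR adjusted p = 0.202) without replicate 2.

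By day 5 Sqstm1 had risen 2.30-fold in Abcb10-null and 1.54-fold in WT cells (edgeR adjusted p = 4.26e-08 and 0.000269), and the changes differed by 0.59 (standard error 0.156, adjusted p = 0.00614). It stayed past the threshold in each alternative tried. Between days 2 and 5 they differed by 0.84 (adjusted p = 0.0362; 0.85 and 0.00372 without both libraries that stood apart). That second call was lost in 11 of 20 fits without 1 library, which left out WT replicates 1, 2, 4 or 5 or Abcb10-null replicate 5 at day 2, or WT replicates 1, 3 or 4 or Abcb10-null replicates 1, 4 or 5 at day 5 (adjusted p = 0.0507 to 0.0693). Among the 5 transcripts with the closest log2 levels over the 30 libraries were Khdc4 (0.94), Renbp (0.92), Neu1 (0.92) and Scarb2 (0.92), with Pearson r in parentheses. Khdc4 encodes an RNA-binding protein, Renbp an epimerase of N-acyl-glucosamine, Neu1 a lysosomal sialidase and Scarb2 a lysosomal membrane protein. With the group means removed, r was 0.69, 0.81, 0.74 and 0.75. Mrnip, on the opposite strand, shares 17.3% of the exon bases of Sqstm1, and the corresponding share was 22.3% for Bnip3 with the antisense gene Gm45507 and 0.772% for Map1lc3b with Zcchc14. As for Gabarapl1, the strand setting of the counting is not given. Some reads counted for Sqstm1, Bnip3 and Map1lc3b may therefore belong to those genes.

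Foxo3 (ENSMUSG00000048756, chromosome 10, 42181841 to 42276755) encodes a forkhead transcription factor known to drive autophagy genes and antioxidant genes in maturing erythroid cells. Its level before DMSO was 41.8 to 54.3 CPM in the WT and 44.3 to 56.9 CPM in the Abcb10-null libraries, a log2 difference of 0.077 (95% interval -0.096 to 0.25). At day 2 it read 166, 154, 122, 119.7 and 168 CPM in the WT and 102, 116, 91.0, 86.2 and 104 CPM in the Abcb10-null libraries. All Abcb10-null libraries lay below all WT libraries, and Foxo3 was 1.52-fold lower (edgeR adjusted p = 0.00827, log2 -0.60, standard error 0.139). At day 5 it read 372, 851, 365, 489.7 and 212 CPM in the WT and 239, 269, 221, 174 and 188 CPM in the Abcb10-null libraries. WT replicate 2 was the highest by far and WT replicate 5 fell inside the Abcb10-null range. The other 3 WT libraries lay above it. Foxo3 was 2.12-fold lower in Abcb10-null cells at day 5 (log2 -1.09, standard error 0.290, edgeR adjusted p = 0.0106), and the log2 difference was -0.75 without WT replicate 2 and -1.28 without WT replicate 5. The calls at both days held in each alternative setting and in each fit without 1 library.

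No other member rose as far as Foxo3 in WT cells, 9.97-fold from day 0 to day 5 (log2 3.32, standard error 0.300, edgeR adjusted p = 4.33e-07), beside 4.5-fold in Abcb10-null cells (log2 2.17, standard error 0.118, edgeR adjusted p = 2.35e-10). The difference between these changes was -1.14 (standard error 0.321, edgeR adjusted p = 0.00882), kept in every alternative. Over the first 2 days it was -0.62 (adjusted p = 0.00953; 0.119 in a joint fit of all 30 libraries), and from day 2 to day 5 -0.52 (95% interval -1.20 to 0.16), which was not called. Over the 30 libraries, log2 levels of Foxo3 and of Wipi1 had r = 0.93, and 0.71 once group means were removed. Foxo3 and Map1lc3b had r = 0.92, and 0.045 once group means were removed. Sqstm1 and Bnip3 had r = -0.15 over all libraries and -0.75 within groups. These correlations describe libraries of 6 groups and carry no test.

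The transcripts closest to Bnip3l over the 30 libraries were Ap1s2 (r 0.90), Gm49602 (r 0.88), Bmt2 (r 0.86), 2610002M06Rik (r 0.85) and Rspry1 (r 0.84), and r with group means removed was 0.80, 0.71, 0.74, 0.79 and 0.52. Ap1s2 encodes a subunit of the AP-1 clathrin adaptor and Bmt2 a sensor of S-adenosylmethionine. Gm49602 is a long intergenic noncoding RNA. Bnip3l and Bnip3 had r = 0.51 over all libraries and 0.70 within groups.

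Most of the 10 genes changed over the days in DMSO, and with no untreated libraries at days 2 and 5 the treatment and the time in culture cannot be told apart. In WT cells 8 rose and none fell from day 0 to day 5, where 36.5% of 12723 genes were called higher and 34.7% lower, with a median log2 change of 1.18 for the 10 genes and 0.023 for all genes. Bnip3 and Gabarapl1 were the 2 not called. The same counts, 8 and none, were reached at an unadjusted p under 0.05 and with DESeq2. In Abcb10-null cells 8 rose and Bnip3 fell over the same days, beside 33.9% and 33.3% of 12915 genes, with medians of 1.16 and 0.014. Bnip3l was not called. By day 2, 6 rose and 1 fell in WT (31.5% and 30.7% of 12839 genes) and 6 rose and 2 fell in Abcb10-null cells (23.1% and 20.1% of 12940). From day 2 to day 5, 7 rose and none fell in WT (17% and 16.4% of 13025) and the same counts held in Abcb10-null cells (14.4% and 16.6% of 12797). In both, the counts at an unadjusted p under 0.05 and with DESeq2 were 7 and none. Shares of all genes at the unadjusted p and with DESeq2 are not given. The comparisons within a genotype share libraries with each other. Sqstm1 in WT cells from day 0 to day 2 (0.19, edgeR adjusted p = 0.0193) was no longer called without WT replicates 2, 3 or 5 at day 0 (0.0602 to 0.0699), nor was Wipi1 in Abcb10-null cells from day 2 to day 5 (0.53, adjusted p = 0.0424) without Abcb10-null replicates 1, 3 or 4 at day 2 or 1, 2, 3 or 5 at day 5 (0.0604 to 0.139).

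**Figure D4:**
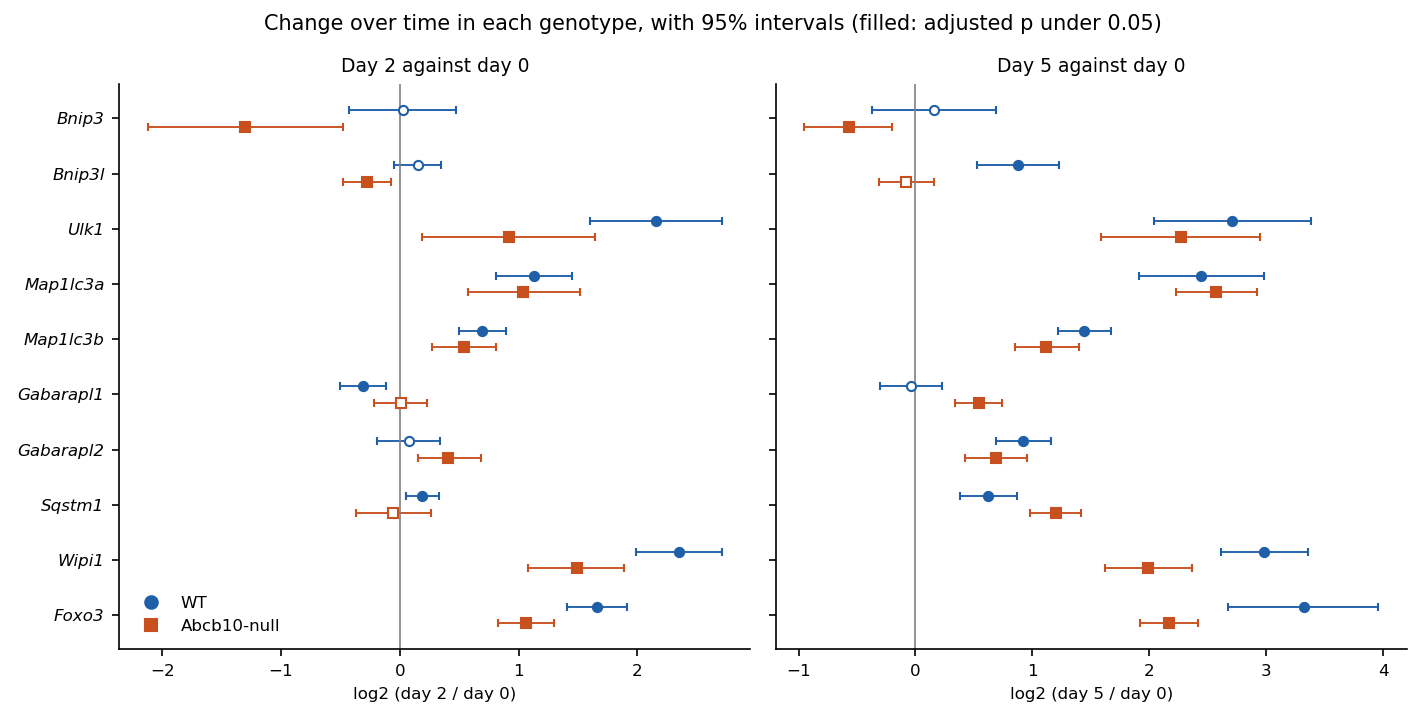
Log2 change from day 0 to day 2 (left) and from day 0 to day 5 (right) for each gene in WT (circles) and Abcb10-null cells (squares), with 95% intervals from edgeR and 5 libraries per group; filled points have an adjusted p under 0.05. At day 5, Foxo3, Wipi1 and Bnip3l lie further right in WT than in Abcb10-null cells, and Sqstm1 and Gabarapl1 further right in Abcb10-null cells.

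Whether the course over time differed between genotypes was tested by the interaction of genotype and day. From day 0 to day 2 none of the 10 genes changed more upward in Abcb10-null cells and 5 changed more downward (Bnip3, Bnip3l, Ulk1, Wipi1 and Foxo3), beside 12% and 10.8% of 13980 genes. At an unadjusted p under 0.05, 1 of the 10 had a positive and 5 a negative change, and with DESeq2, none of the 10 had a positive and 5 a negative change. From day 0 to day 5, Gabarapl1 and Sqstm1 changed more upward and Bnip3l, Wipi1 and Foxo3 more downward, beside 16.8% and 14.7% of 14020 genes. From day 2 to day 5, Sqstm1 was the 1 gene called, beside 1.77% and 2.94% of 13956 genes. At an unadjusted p under 0.05, 1 of the 10 had a positive and 2 a negative change, and with DESeq2, 1 of the 10 had a positive and none a negative change. Shares of all genes are not given for the unadjusted and DESeq2 counts of these interactions, so those counts carry no statement about the group. Without Abcb10-null replicate 2 at day 2, Gabarapl1 was also called from day 0 to day 2 (0.35, edgeR adjusted p = 0.036). With all libraries, Bnip3 was not called from day 0 to day 5 (-0.73, edgeR adjusted p = 0.0978). Without WT replicate 5 at day 5, Bnip3 was called over these days (-0.94, adjusted p = 0.00364). In the same fit for day 2 to day 5, Bnip3l was also called (-0.61, adjusted p = 0.0358). Without Abcb10-null replicate 2 at day 5, Bnip3 was likewise called from day 0 to day 5 (-0.96, adjusted p = 0.0229). With both libraries that stood apart left out, 3 genes were called from day 2 to day 5, 1 upward and 2 downward. More of all genes were called in that fit too.

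A further list held 83 other genes of autophagy and mitophagy and of their regulators, among them the stress-induced Trib3 and Sesn2. Of these 83 genes, 82 were tested. At day 0, 27 were called higher and 10 lower in the null cells (median log2 difference 0.13), beside 19.7% and 16.2% of all genes tested (median -0.0019). At day 2, 17 were called higher and 18 lower (median 0.054), beside 14.9% and 16.9% (median -0.0022). At day 5, 22 were called higher and 17 lower (median 0.025), beside 19.8% and 17.8% (median -0.016). Without Abcb10-null replicate 2 the day 2 counts were 28 and 18, beside 19.5% and 21.1% of all genes, and without WT replicate 5 the day 5 counts were 25 and 19, beside 22.2% and 20.7%. Of the 13 genes of the lipid kinase complex and of membrane supply, 2 were called higher and 1 lower at day 0, none higher and 4 lower at day 2, and 1 higher and 3 lower at day 5. Genes of ubiquitin-like conjugation gave 5 higher and 1 lower of 12 at day 0, 4 and 1 at day 2 and 4 and 2 at day 5. Those of fusion and the lysosome gave 4 higher and 2 lower of 11 at day 0, 3 and 3 at day 2 and 4 and 3 at day 5. Counts this small are read against the same shares of all genes and carry no statement about a role. By day 5, 53 of the 82 rose and 12 fell in WT cells (median 0.70), beside 36.5% and 34.7% of all genes (median 0.023). In Abcb10-null cells 56 rose and 11 fell (median 0.56), beside 33.9% and 33.3% (median 0.014).

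**Figure D5:**
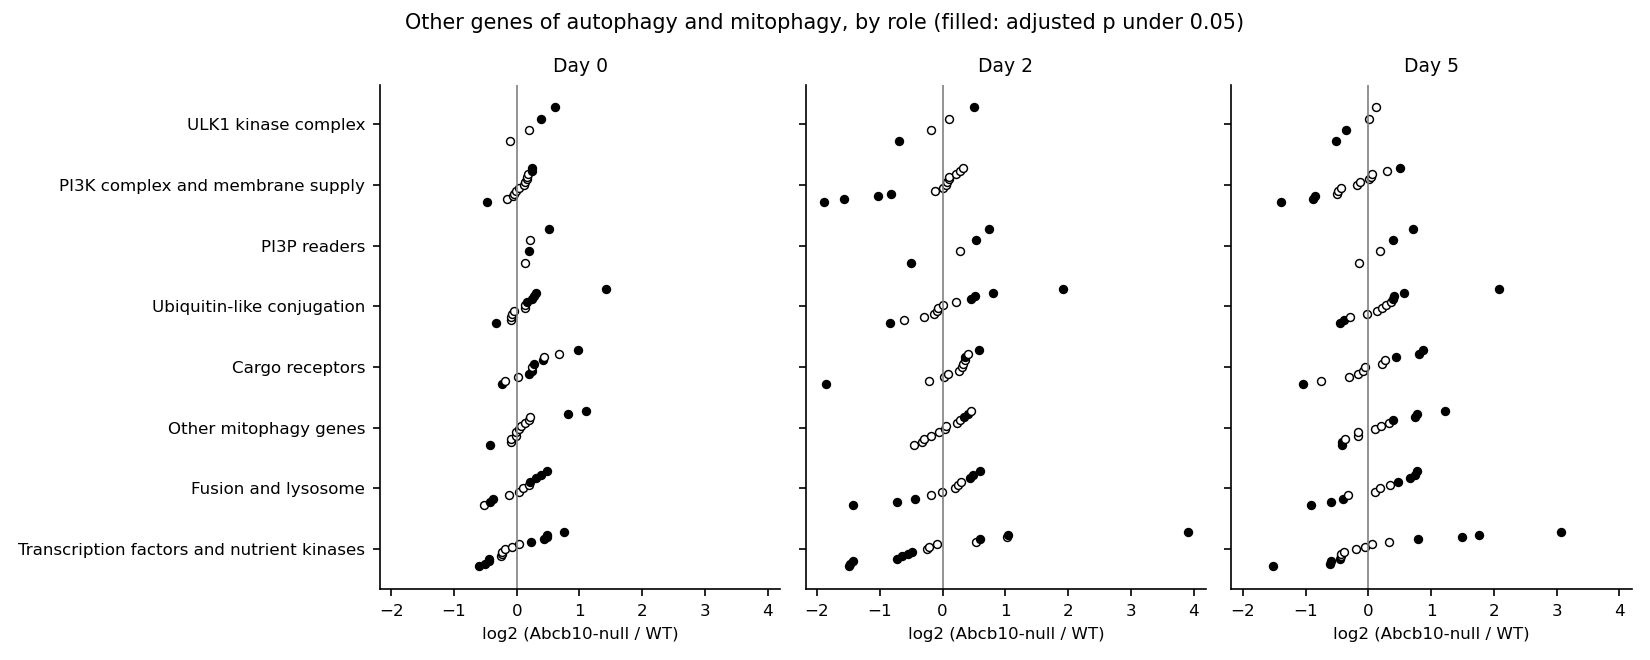
Difference in log2 level, Abcb10-null minus WT (x axis), at days 0, 2 and 5 for the 82 other autophagy and mitophagy genes tested, 1 point per gene, in rows by role; filled points have an edgeR adjusted p under 0.05. The point furthest right at days 2 and 5 is Trib3 (3.91 and 3.07), in the row of transcription factors and nutrient kinases. Points lie on both sides of 0 in the rows of nutrient kinases, lipid kinase complex and lysosome.

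From the 3 called genes furthest from 0 in each direction and on each day, those reported are given with the log2 difference and the edgeR adjusted p in parentheses. Atg10, the E2-like enzyme that joins ATG12 to ATG5, was higher in Abcb10-null cells on all 3 days (1.42, 1.92 and 2.08; edgeR adjusted p = 3.4e-09, 0.000551 and 0.00024), and its ranges were apart on each day, around means of 23.3 and 6.34 CPM in Abcb10-null and 8.68 and 1.48 CPM in WT cells at days 0 and 5. Trib3 was lower at day 0 (-0.60, adjusted p = 4.93e-06) and higher at day 2 (3.91, 0.00324) and day 5 (3.07, 0.00894), and without the library that stood apart they were 4.23, adjusted p = 3.11e-05 at day 2 and 5.10, adjusted p = 1.22e-08 at day 5. Sesn2, a stress-induced inhibitor of mTORC1, went the same way, at -0.50 on day 0 (adjusted p = 0.0195) and 1.77 on day 5 (0.00235), whereas Sesn3, of the same family, was lower at day 5 (-1.52, 0.00231). Atg9a, the membrane scramblase that seeds the autophagosome, was lower at day 2 (-1.57, 0.00479) and day 5 (-1.39, 0.00467), and so at day 2 were the lipid transfer gene Atg2a (-1.89, 0.0026) and Wdfy3, a scaffold for aggregate clearance (-1.86, 0.00514). The receptor gene of endoplasmic reticulum autophagy, Retreg1, was higher at day 0 (0.98, 2.5e-07) and lower at day 5 (-1.04, 0.0141). The remaining named genes were the Beclin 1 regulator Ambra1 at -0.47 on day 0 (0.00535) and the transcription factor gene Mitf at 1.04 on day 2 (0.00799). With all libraries, the ranges of the genotypes overlapped for Sesn2 and Ambra1 at day 0, Trib3 at day 2, and Atg9a and Retreg1 at day 5. Without Abcb10-null replicate 2, the day 2 differences were 2.03 for Atg10, -1.88 for Atg9a, -2.08 for Atg2a, -2.18 for Wdfy3 and 1.20 for Mitf. Without WT replicate 5, those of day 5 were 2.10 for Atg10, -1.54 for Atg9a, 2.30 for Sesn2, -1.70 for Sesn3 and -1.22 for Retreg1. All 10 stayed past the threshold (edgeR adjusted p from 2.43e-05 to 0.00227).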

How the data were processed

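Ribosomal and globin RNA were depleted by the authors before stranded libraries of total RNA were made. They trimmed reads with cutadapt, aligned them to GRCm38 with STAR 2.6.1b and counted them per gene with featureCounts 1.6.3, and deposited counts for 54532 genes in 30 libraries, of which 9219 genes had no count. The strand setting of the counting is not given in the sources used here. Library totals ranged from 9906783 to 20157768 counts (median 16492116.5). Groups came from the sample labels, with 5 libraries for each genotype and day. The study names its replicates biological, but the labels do not say what was cultured apart, so p-values measure the spread between these libraries. No pair of replicates agreed within sampling noise (lowest chi-square per degree of freedom 6.23).

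Each comparison was fitted on its own groups with edgeR 4.0.16 in R 4.3.3 (TMM, filterByExpr, quasi-likelihood test, Benjamini-Hochberg over all genes tested, threshold 0.05), after tests on simulated data. DESeq2 1.42.0 was an alternative. CPM are counts scaled to a common total by TMM-scaled library size, and CPM per kb divide by exon length in GENCODE M21, whose gene positions are given. In all, 37 gene IDs were not in that annotation. Likeness used log2 CPM with a prior count of 2. The named genes are the 10 members, the up to 3 pathway genes with the largest called difference per direction and day, and the 5 genes closest to Bnip3l and to Sqstm1. Of these, 2 genes are not reported here. Members, lists and motifs were chosen with earlier results of these data known. Tables and figures were made with Python 3.11.15, pandas 2.3.3 and matplotlib 3.10.9.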

Additional observations from a re-analysis of the deposited data

Results flagged for a closer look

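5 of the 60 combinations of gene and group held a library set apart from the other 4 by Dixon's 95% criterion, where chance alone gives about 1 in 20. Bnip3l in Abcb10-null replicate 1 at day 0 read 220.0 CPM beside 239 to 246 CPM in the other 4 libraries. Bnip3l in WT replicate 5 at day 5 read 178 CPM beside 329 to 358 CPM in the other 4 libraries. Ulk1 in Abcb10-null replicate 1 at day 5 read 24.1 CPM beside 7.07 to 11.3 CPM in the other 4 libraries, and Gabarapl1 in the same library read 165 CPM beside 119 to 130.4 CPM in the other 4 libraries. Foxo3 in WT replicate 5 at day 0 read 54.3 CPM beside 41.8 to 45.3 CPM in the other 4 libraries.

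11 changes over time differed between genotypes by the interaction test (edgeR, 5 libraries per group), given here as log2 differences of Abcb10-null minus WT change. From day 0 to day 2 they were -1.35 for Bnip3, -0.45 for Bnip3l, -1.26 for Ulk1, -0.89 for Wipi1 and -0.62 for Foxo3. From day 2 to day 5 the value was 0.84 for Sqstm1. From day 0 to day 5 they were -0.95 for Bnip3l, 0.59 for Gabarapl1, 0.59 for Sqstm1, -0.98 for Wipi1 and -1.14 for Foxo3. Those of Bnip3 and Ulk1 from day 0 to day 2 and of Sqstm1 from day 2 to day 5 were lost on leaving out single libraries.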

How the results depend on the processing

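Each of the 120 results of a gene in a comparison was recomputed with DESeq2, with DESeq2 size factors in edgeR, with a filter at 1 count or at 10 counts per library, in a joint fit of all 30 libraries, leaving out globin, mitochondrial and small RNA genes, with a replicate block, and without each library in turn. Of the 68 calls, 48 held under all of these. Over 2350 recomputed values, 96 lost a call, 35 gained one and 34 changed sign, and the last were all of differences that were not called. Another scaling moved the median of all genes by at most 0.042 on the log2 scale. At day 0 Ulk1 and Wipi1, at a few CPM, rested on few counts (26 to 71 and 38 to 67 in WT libraries). So did Ulk1 in Abcb10-null cells at day 2 (30 to 153 counts). Further, 5 libraries of 1 clone limit every call.

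In the joint fit of all 30 libraries, 1 of the 10 genes was called between genotypes at day 0 in place of 5, and 2 and 2 interactions were called from day 0 to day 2 and from day 2 to day 5 in place of 5 and 1. Leaving out both libraries that stood apart, an alternative chosen after seeing the data, gave 3 interactions from day 2 to day 5. Calls over all genes also fell at day 0 in the joint fit, and rose from day 2 to day 5 in both fits. The cause of these moves was not tested. Without 1 library, the genes called between genotypes numbered 4 to 5 at day 0, 2 to 4 at day 2 and 2 to 7 at day 5. Those called over time numbered 6 to 8, 7 to 8 and 8 to 9 in WT and 6 to 8, 5 to 8 and 9 in Abcb10-null cells for day 2 against 0, 5 against 2 and 5 against 0, and the interactions numbered 3 to 6, 0 to 2 and 5 to 6. Calls over all genes also moved without 1 library, and their shares are not given beside these ranges. The ranges therefore do not describe the 10 genes alone.

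Same-numbered libraries did not in general deviate together (75 pairs, median correlation of deviations -0.0145, range -0.26 to 0.43). Some did, with 8 pairs over 0.1. The numbers were not taken as pairing. With the replicate number as a block, the genes called numbered 4, 3 and 5 between genotypes at days 0, 2 and 5, 6, 7 and 8 over time in WT, 6, 5 and 9 in Abcb10-null cells, and 5, 1 and 5 for the interactions. Shares of all genes are not given for the fits with the block. Calls over all genes also fell with it for Abcb10-null day 5 against day 2. The block gained 2 calls, Bnip3 at day 2 (-1.07, edgeR adjusted p = 0.0414) and Bnip3l at day 5 (-0.47, 0.035) between genotypes. It lost 6: Wipi1 between genotypes at day 0 (adjusted p = 0.0704), Sqstm1 in WT (0.124), Bnip3l (0.0535) and Ulk1 (0.075) in Abcb10-null cells from day 0 to day 2, and Map1lc3b (0.0564) and Wipi1 (0.123) in Abcb10-null cells from day 2 to day 5.

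Values that changed sign were small. Without 1 library, the difference between genotypes at day 2 ranged from -0.081 to 0.033 for Bnip3l, from -0.015 to 0.10 for Gabarapl1 and from -0.031 to 0.18 for Sqstm1. The change from day 0 to day 2 in WT cells ranged from -0.11 to 0.17 for Bnip3 and from -0.0022 to 0.18 for Gabarapl2, and that to day 5 from -0.14 to 0.069 for Gabarapl1. In Abcb10-null cells the change from day 0 to day 2 ranged from -0.034 to 0.078 for Gabarapl1 and from -0.12 to 0.085 for Sqstm1. Interactions ranged from -0.31 to 0.013 (days 0 to 2) and from -0.019 to 0.39 (days 0 to 5) for Map1lc3a, and from -0.17 to 0.028 for Wipi1 (days 2 to 5). In other settings, Bnip3l at day 2 was 0.0047, 0.028 and 0.0071 with the filter at 1 count, in the joint fit and without globin and like genes, Bnip3 in WT from day 0 to day 2 was -0.068 with the block, and Gabarapl1 in Abcb10-null cells over those days was -0.0023, -0.0024, -0.012, -0.0095, -0.02 and -0.017 with DESeq2, its size factors, the filters at 1 and 10 counts, the joint fit and the block.

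Over all genes, the calls at day 0 numbered 4642, and 1584 in the joint fit. At day 2 they numbered 4151, against 2744 when WT replicate 2 was left out and 2665 when Abcb10-null replicate 1 was. For Abcb10-null day 5 against day 2 they numbered 3968, and 2592 with the block. For the interaction from day 2 to day 5 they numbered 657, against 1235 with DESeq2, 1705 in the joint fit, 1829 without both libraries that stood apart, and 275 to 1352 without 1 library.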
